A study of Mus musculus with 6 samples.

Results

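The mitochondrial ribosomal protein genes encode the protein part of the ribosome inside mitochondria. Members were the genes of the deposited table whose mouse symbol begins with Mrpl or Mrps and a number, without pseudogenes, and whose mean over the 6 libraries was at least 1. By this rule there were 77 members of 25894 genes in the table, 48 of the large subunit (Mrpl) and 29 of the small subunit (Mrps). The minimum removed none, since the lowest mean was 133 (Mrpl22) and the highest 1381 (Mrpl30), and 4 pseudogene rows were left out by name. Mrpl53 was not analysed here.

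The libraries came from inguinal white adipose tissue, the subcutaneous fat of the groin, of female C57BL/6N mice, described as 15-week-old and fasted for 10 h. The first group, labelled SF 8w-SR 2w and called fragmented, recovered here, was 3 mice whose sleep was fragmented during 8 weeks, with 2 weeks left to recover. The other group held 3 control mice, whose housing and handling are not given in the sources used here. Each library was taken to be 1 mouse, and the comparison asks what still differed in the fat after the recovery period. In bulk tissue, fewer cells of a type and less RNA per cell cannot be told apart.

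Mitochondria keep a small genome of their own, which encodes core subunits of the respiratory chain and ATP synthase together with the ribosomal and transfer RNAs needed to make them. All proteins of the mitochondrial ribosome are encoded in the nucleus, made in the cytosol and imported. The small subunit binds the messenger RNA and reads its codons, and the large subunit joins the amino acids and holds the exit tunnel. In white fat this machinery supports the respiratory chain of adipocytes, and its demand is known to be higher in brown and beige adipocytes.

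Promoter windows are shown for 4 members because they cover the range of behaviour described below, from the member that differed most between libraries (Mrps21) to an abundant member that differed little between groups (Mrpl17). Each is the 250 bases before the transcription start, from RefSeq on build GRCm38.p6, 5′ to 3′, with the letters of a searched motif in capitals.
Mrps21 (chr3:95871515-95871764, minus strand): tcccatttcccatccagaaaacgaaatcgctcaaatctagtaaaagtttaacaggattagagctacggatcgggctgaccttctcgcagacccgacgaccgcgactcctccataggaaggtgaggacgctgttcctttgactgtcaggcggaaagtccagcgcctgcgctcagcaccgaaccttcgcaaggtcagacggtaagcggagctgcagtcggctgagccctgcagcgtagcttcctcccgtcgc
Mrps11 (chr7:78782881-78783130, plus strand): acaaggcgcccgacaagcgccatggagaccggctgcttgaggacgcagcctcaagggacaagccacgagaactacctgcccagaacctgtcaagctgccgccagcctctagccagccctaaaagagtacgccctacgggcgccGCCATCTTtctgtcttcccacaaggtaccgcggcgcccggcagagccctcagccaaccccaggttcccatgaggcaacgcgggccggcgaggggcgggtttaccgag
Mrpl22 (chr11:58171414-58171663, plus strand): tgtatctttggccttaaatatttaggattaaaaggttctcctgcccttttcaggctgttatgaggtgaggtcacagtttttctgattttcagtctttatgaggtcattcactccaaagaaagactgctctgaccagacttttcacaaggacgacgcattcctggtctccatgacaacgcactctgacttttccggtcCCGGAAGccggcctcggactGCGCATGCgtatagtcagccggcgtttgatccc
Mrpl17 (chr7:105811088-105811337, minus strand): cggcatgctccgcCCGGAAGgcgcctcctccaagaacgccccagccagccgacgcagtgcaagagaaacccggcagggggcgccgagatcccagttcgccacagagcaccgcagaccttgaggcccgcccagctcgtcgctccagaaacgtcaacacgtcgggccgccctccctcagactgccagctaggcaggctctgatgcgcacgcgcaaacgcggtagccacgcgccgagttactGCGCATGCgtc
The capitals mark CCGGAAG, the core bound by ETS factors such as GABPA, GCATGCGC, a core of the NRF1 site, and AAGATGGC, a core of the YY1 site, on either strand. In Mrps11 the YY1 letters began 107 bases before the start on the opposite strand. In Mrpl22 the ETS letters began 53 bases and the NRF1 letters 33 bases before the start. In Mrpl17 the same pair of motifs stood farther apart, at 237 and 11 bases before the start. The 250 bases before the Mrps21 start held none of these letters.

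A RefSeq window of 300 bases, which adds the first transcribed bases to the stretch printed, was matched for 68 of the 77 members. CCGGAAG stood in 25 of these windows (36.8%), against 16.2% of the 13942 tested genes with a window and 9.93% of all 27025 genes with one. AAGATGGC stood in 12 (17.6%), against 4.27% and 3.19%. GCATGCGC stood in 8 (11.8%), against 4.88% and 3.05%. The TATA box letters TATAAA stood in 5 (7.35%), against 10.4% and 15.7%. At least 1 of the ETS, NRF1 and YY1 cores stood in 37 members (54.4%), against 23.1% of tested genes with a window. Both strands were searched, and a match is a description of the letters only. The ETS and YY1 letters can share bases, and both stood in 3 members, with overlapping letters in 0. The 25 members with and 43 without the ETS letters had median log2 differences between groups of 0.31 and 0.30. For the YY1 letters (12 and 56 members) the medians were 0.45 and 0.29. For the NRF1 letters (8 and 60) they were 0.36 and 0.30, and for the TATA letters (5 and 63) 0.07 and 0.30.

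Levels are given as normalised read counts, which are reads scaled by 1 factor per library. The members were at their highest in control 1 and fragmented, recovered 1 and at their lowest in controls 2 and 3. Together they took 0.27% of reads in control 1 (Wilson 95% interval 0.268 to 0.273), 0.147% in control 2 (0.145 to 0.149) and 0.133% in control 3 (0.132 to 0.135). In fragmented, recovered 1 to 3 they took 0.255%, 0.249% and 0.203%. The group means were 0.236% ± 0.029 (SD, n = 3) for fragmented, recovered mice and 0.183% ± 0.075 for controls, and the groups overlapped because control 1 lay above every fragmented, recovered mouse. The intervals cover counting error only.

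The same order was seen gene by gene. For each member, log2(value + 1) was set against that member's mean over the 6 libraries. The median over the 77 members was 0.50 in control 1, -0.47 in control 2 and -0.48 in control 3. In fragmented, recovered 1 to 3 it was 0.45, 0.16 and -0.05. The median over all genes tested stayed between -0.10 and 0.07 in every library. Scaling by 1 factor per library tends to hold that median near 0, so it does not show that other genes were steady. The main axis of variation over all genes tested held 42.3% of their variance. On it controls 2 and 3 stood at 116 and 111 and fragmented, recovered 2 at 8.8. Control 1 stood at -77, and fragmented, recovered 1 and 3 at -91 and -69. Control 1 had the highest value of all 6 libraries for 42 members (12.7% of all genes tested) and fragmented, recovered 1 for 30 (18.8%). Control 2 had the lowest value for 34 (17.5% of all genes tested) and control 3 for 33 (21.3%). Controls 2 and 3 were the lowest 2 libraries for 55 members, 35 of the large and 20 of the small subunit, where 20.6% of all genes tested had that pattern. Control 1 lay above all 3 fragmented, recovered mice for 42 members, against 19.2% of genes tested, and it lay below all of them for 0. The member profiles were alike. Across the 6 libraries, 48 members had a Pearson correlation above 0.9 with the median of the others, and 3 (Mrpl1, Mrpl18 and Mrpl3) had one below 0, a description over 6 libraries in 2 groups. The share of all genes with such correlations was not computed.

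**Figure D1:**
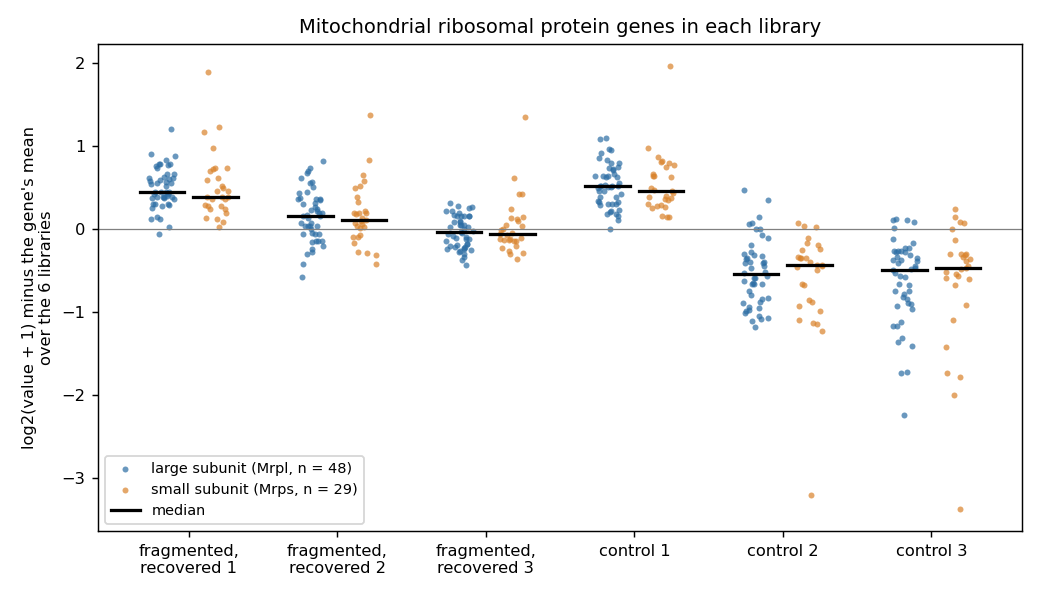
Each point is 1 gene, plotted as log2(value + 1) minus that gene's mean over the 6 libraries, by library and subunit, and black bars are medians. Both subunits were high in fragmented, recovered 1 and control 1 (medians 0.39 to 0.52) and low in controls 2 and 3 (medians -0.43 to -0.55), and the lowest point in controls 2 and 3 is Mrps21.

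Between the groups, 67 of 77 members had a higher mean log2 value in the fragmented, recovered mice and 10 a lower one, where 51.6% of all 22290 genes tested were higher. The median log2 difference was 0.30 over the members and 0.02 over all genes tested. None of the members passed an FDR of 0.05 by limma, as was true of all genes (0% called), and the smallest limma adjusted p of a member was 0.697. At an unadjusted p under 0.05 there was 1 member higher (Mrps21, against 3.24% of genes tested) and 0 lower (against 2.14%). edgeR and DESeq2 on recovered reads called 0 members at an FDR of 0.05 (0% of genes called by each) and had 0 at an unadjusted p under 0.05 (4.67% and 4.58% of their genes, either direction). The groups did not overlap, with the fragmented, recovered mice higher, for 0 members (5.02% of genes tested). They did not overlap in the other direction for 1 member, Mrpl19 (3.58%).

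These counts turned on control 1. Without it, limma at an FDR of 0.05 called 12 members higher (2.53% of genes tested) and 0 lower (1.26%), and the median log2 difference over members was 0.61. The 12 were Mrps21, Mrpl38, Mrpl41, Mrpl48, Mrps11, Mrps34, Mrps18c, Mrps26, Mrpl51, Mrpl23, Mrpl11 and Mrps33, with limma adjusted p-values from 0.0123 to 0.0486. When trends on length and GC content were taken out as well, Mrps21 and Mrpl51 passed (0.332% of genes tested were called higher and 0.0852% lower). Without control 2, control 3 or fragmented, recovered 1 the median was 0.18, 0.17 or 0.17, with 0 members called.

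The large and small subunits had like profiles. The median log2 difference was 0.41 over 48 large subunit genes, 43 of them higher, and 0.27 over 29 small subunit genes, 24 of them higher. Within libraries, the large subunit median minus the small subunit median was 0.063, 0.051 and 0.019 in fragmented, recovered 1 to 3 and 0.053, -0.12 and -0.026 in controls 1 to 3. Over the fragmented, recovered mice this difference averaged 0.044 ± 0.023 (SD, n = 3), and over the controls -0.030 ± 0.084, with overlapping groups. The difference of the subunits' medians between groups was 0.15, and it ran from 0.11 (without fragmented, recovered 3) to 0.27 (without control 1) with each mouse left out, and was 0.22 without fragmented, recovered 2. It was 0.019 with trends on length and GC content taken out. Summed normalised counts of the large subunit were 1.8 to 1.88 times those of the small subunit in fragmented, recovered mice and 1.69 to 1.84 times in controls. In each library the subunits' medians were closer to each other than either was between the highest and lowest libraries. By known structures, the products of Mrps18a and Mrps30 sit in the large subunit, and that of Mrps36 belongs to the 2-oxoglutarate dehydrogenase complex. With these 3 genes reassigned the medians were 0.41 over 50 large and 0.25 over 26 small subunit genes. Members with a bacterial counterpart had a median of 0.28 (46 genes) and those found only in mitochondrial ribosomes 0.32 (30 genes).

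**Figure D2:**
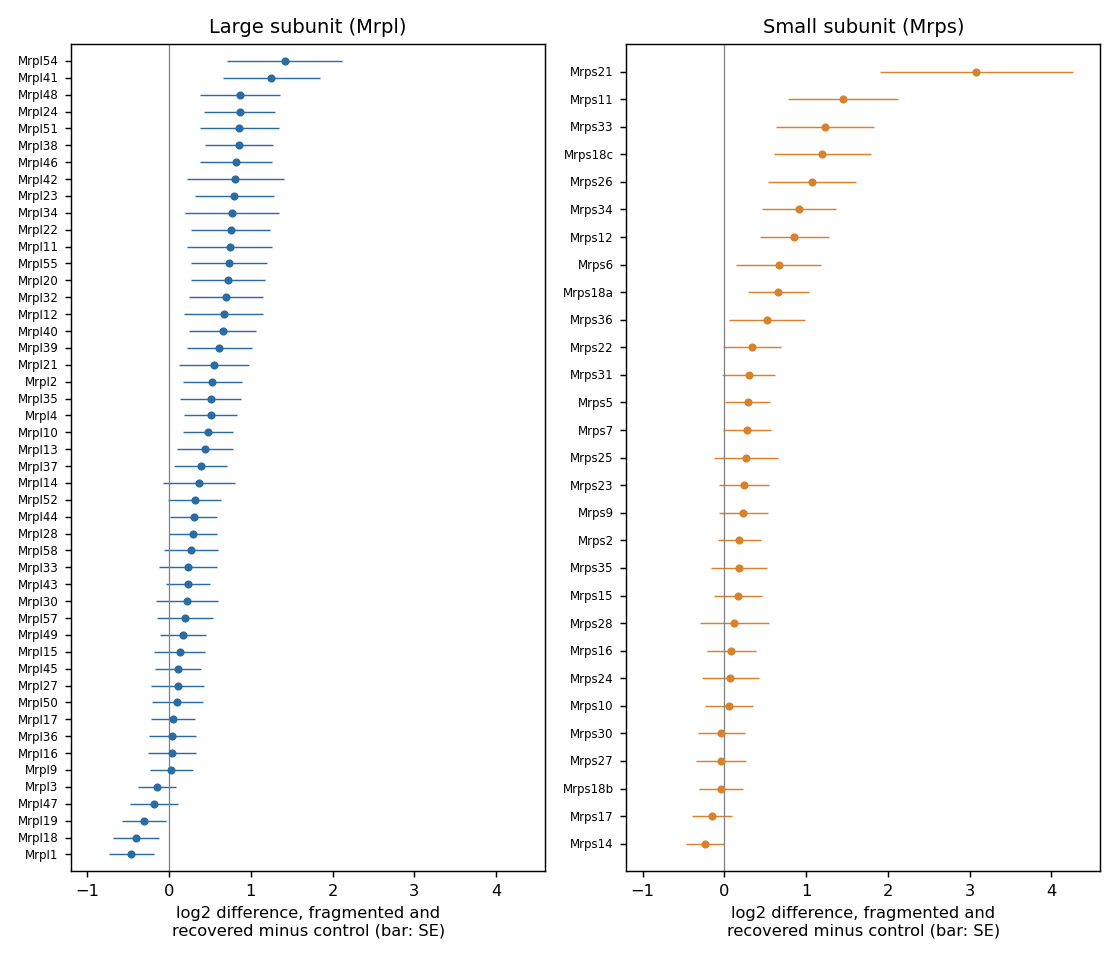
Points are the log2 difference of each gene, fragmented and recovered minus control, on the log2(value + 1) scale, and bars are the limma standard error. Most genes of both subunits lie right of 0 with bars that are wide against the difference, and Mrps21 lies farthest right at 3.08.

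Levels between genes were compared as normalised counts per kilobase of median transcript length. For some genes this length is far below the annotated exonic bases, as for Mrpl17 (743.5 against 7605). Ranks on another length were not computed. The median was 416 per kilobase for the large subunit and 326 for the small subunit. The most abundant large subunit genes were Mrpl30 (2086 per kilobase), Mrpl17 (1346) and Mrpl52 (1198), and the least abundant was Mrpl19 (50.4). The most abundant small subunit genes were Mrps21 (1107), Mrps17 (1083) and Mrps6 (1033), and the least abundant was Mrps25 (36.7). These are means over libraries that differ: Mrps21 had 53.0 per kilobase in control 2 and 46.8 in control 3, where Mrps17 had 956 and 1270. Mrps25 also shares 73.9% of its 50-base stretches with other genes, mainly Nr2c2 on the opposite strand, and Mrps6 shares 32.2%.

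In the small subunit, Mrps21, the counterpart of a bacterial small subunit protein, had the widest spread of any member. Its normalised counts were 772, 537 and 531 in fragmented, recovered 1 to 3, 810 in control 1, 21.5 in control 2 and 18.9 in control 3. Thus it was abundant in every fragmented, recovered mouse and in control 1, far lower in controls 2 and 3, and the groups overlapped. The values in controls 2 and 3 rested on 19 and 17 reads, which is 1.22 CPM (reads scaled to a common library total, Clopper-Pearson 95% interval 0.733 to 1.90) and 1.00 CPM (0.583 to 1.60), against 31.9 to 44.6 CPM in the other 4 libraries. Its log2 difference was 3.08 (SE 1.18), with a limma adjusted p of 0.697. Its log2 range over the 6 libraries, 5.35, was wider than that of 98.9% of the 11443 genes tested with a mean of at least 100. The next widest member range was 3.45, for Mrpl54. Of the 50-base stretches of Mrps21, 13.7% also occur in Gm6181, so some reads of these genes could be split between them.

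Mrps11, another small subunit protein with a bacterial counterpart, had 209, 159 and 163 in fragmented, recovered 1 to 3 and 209, 47.5 and 25.6 in controls 1 to 3. Control 1 and fragmented, recovered 1 were equal at this rounding, and controls 2 and 3 were far lower. The log2 difference was 1.45 (SE 0.67, limma adjusted p = 0.697). Its exons overlap those of Mrpl46, a large subunit gene on the opposite strand, over 8.0% of the exonic bases of Mrps11 and 12.2% of those of Mrpl46. Mrpl46 had 283, 231 and 175 in fragmented, recovered mice and 243, 84.8 and 100.3 in controls. This pair thus had its lowest values in the same libraries, and the stranding of the counting is not given in the sources used here.

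Mrps12, which lies at the decoding site, had 382, 327 and 234 in fragmented, recovered mice and 303, 103 and 157 in controls, a log2 difference of 0.85 (SE 0.42, limma adjusted p = 0.697). The start of Sars2, the mitochondrial seryl-tRNA synthetase, lies 172 bases away in the other direction in the GENCODE annotation. Mrps33 had 536, 323 and 248 against 405, 120 and 68.0, a difference of 1.23 (SE 0.60). Both Mrps12 and Mrps33 overlapped between groups through control 1. Mrps34, found only in mitochondrial ribosomes, had 357, 291 and 311 against 362, 107 and 123, a difference of 0.91 (SE 0.45). It overlaps Mapk8ip3 and Nme3 over 63.4% of its exonic bases on the opposite strand and 37.0% on the same strand, so its value is uncertain.

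The 3 Mrps18 genes differed in their values. Mrps18c had 264, 250 and 215 in fragmented, recovered mice and 293, 85.9 and 45.7 in controls, a difference of 1.20 (SE 0.59), and shares 23.2% of its 50-base stretches with Gm43511 and others. Mrps18a, whose product sits in the large subunit, had 545, 384 and 358 against 452, 184 and 226, a difference of 0.66 (SE 0.37). Mrps18b was the steadiest of all members, with 283, 233 and 258 against 292, 268 and 237 and a log2 range of 0.33. Its difference of -0.04 (SE 0.27) had no stable sign and was 0.08 with library-size scaling. For Mrps18b, 63.7% of 50-base stretches also occur in Gm16279 and Gm13552, so reads could be split between these genes.

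The other small subunit genes named had differences on both sides of 0. Mrps14 had 866, 649 and 683 in fragmented, recovered mice and 960, 830 and 792 in controls, a difference of -0.24 (SE 0.24). Mrps17 had -0.15 (SE 0.24), with 1081 in control 3 as its highest library. Mrps30, whose product lies in the large subunit, had -0.04 (SE 0.29), turning to 0.08 with library-size scaling and 0.24 once the length and GC trends were taken out. Mrps36 had 0.52 (SE 0.46), and Mrps6, which varied from 320 in control 2 to 1687 in fragmented, recovered 1, had 0.66 (SE 0.52). None of these passed.

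In the large subunit, Mrpl54 had 376, 287 and 172 in fragmented, recovered 1 to 3 and 314, 90.4 and 33.4 in controls 1 to 3. Control 3 was the lowest and control 1 stood among the fragmented, recovered mice. The log2 difference was 1.42 (SE 0.70, limma adjusted p = 0.697). Mrpl41 had 464, 404 and 297 against 466, 119 and 73.5, a difference of 1.25 (SE 0.59). Mrpl38 had 800, 680 and 655 against 822, 267 and 276, a difference of 0.85 (SE 0.42). All 3 encode proteins found only in mitochondrial ribosomes, and for Mrpl41 and Mrpl38 control 1 was the highest library. Mrpl24, which has a bacterial counterpart near the exit tunnel, had 981, 716 and 670 against 826, 423 and 223, a difference of 0.86 (SE 0.43), and shares 38.0% of its 50-base stretches with Rrnad1.

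**Figure D3:**
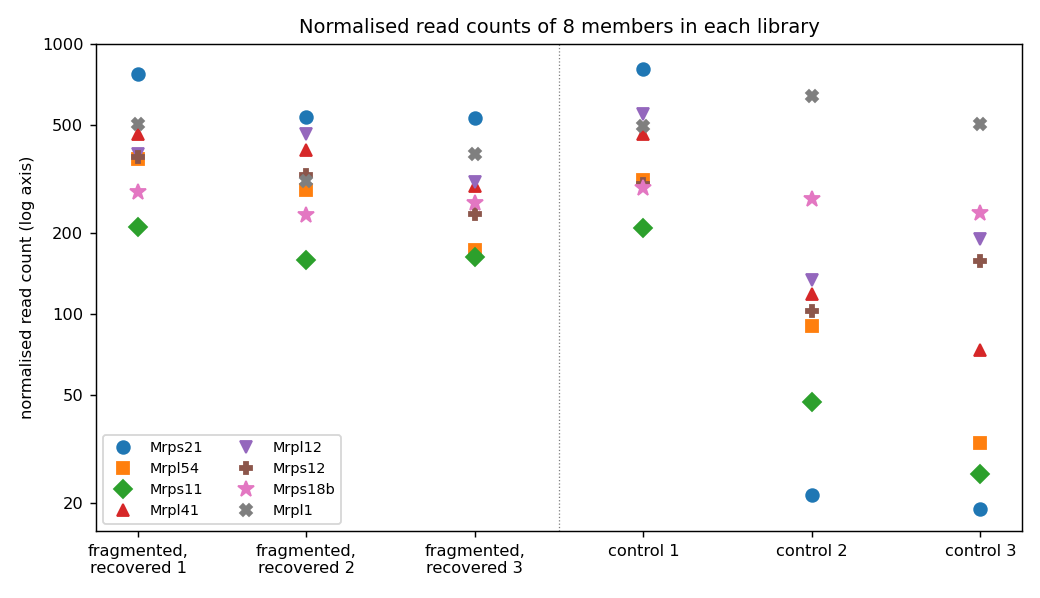
Points are normalised read counts (log axis) of 8 members in the 6 libraries, with fragmented, recovered mice left and controls right of the dotted line. Mrps21 stands at 531 to 810 in 4 libraries and at 21.5 and 18.9 in controls 2 and 3, while Mrps18b stays between 233 and 292 and Mrpl1 is highest in control 2.

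The large subunit genes above were named for small p-values, and others were named for their roles, their abundance or the lowest mean. Mrpl12, the flexible stalk protein that is also known to bind the mitochondrial RNA polymerase, had 393, 465 and 309 in fragmented, recovered mice and 552, 133 and 189 in controls. Control 1 was thus the highest and control 2 the lowest library, and the difference was 0.67 (SE 0.48, limma adjusted p = 0.707). Mrpl44, which has a fold like ribonuclease III, had a difference of 0.30 (SE 0.29). Mrpl58, a relative of bacterial release factors that can free stalled peptides, had 0.27 (SE 0.33). Mrpl22, which shares 33.4% of its 50-base stretches with Gm6997, had 0.75 (SE 0.48). The abundant Mrpl30, Mrpl17 and Mrpl52 had 0.22, 0.05 and 0.31. Of these, Mrpl17 and Mrpl52 turned to -0.27 and -0.16 once those trends were taken out, and Mrpl17 and Mrpl30 turned to -0.059 and -0.025 with the B and plasma cell score as a covariate.

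A few large subunit genes ran the other way. Mrpl1 had 504, 310 and 391 in fragmented, recovered mice and 498, 642 and 504 in controls, so that control 2 was its highest library, a difference of -0.46 (SE 0.28, limma adjusted p = 0.697). Mrpl18 had 573, 359 and 357 against 536, 614 and 519, a difference of -0.41 (SE 0.28). Mrpl19 had 239, 225 and 210 against 305, 263 and 268, a difference of -0.31 (SE 0.27), and was the member whose groups did not overlap. Gcfc2 lies opposite Mrpl19 over 36.0% of its exonic bases. Mrpl47 had -0.18 (SE 0.29), turning to 0.063 once those trends were taken out.

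The members that stood lowest in controls 2 and 3 tended to have short transcripts. The median transcript length of the members was 1056 bases, against 1794 over all genes tested, and their median GC content was 50.4%, close to that of all genes tested. The Spearman correlation across the 77 members between a library's deviation and transcript length was 0.42 in control 2 and 0.35 in control 3. It was -0.43 in control 1 and -0.40, -0.36 and -0.17 in fragmented, recovered 1 to 3. Over all genes tested with a known length the values had the same sign except in fragmented, recovered 3, with 0.15 and 0.23 in controls 2 and 3, -0.18 in control 1, and -0.20, -0.15 and 0.062 in fragmented, recovered 1 to 3. With GC content in place of length, the members' correlation was -0.39 in control 2 and -0.19 in control 3, and it lay between 0.11 and 0.40 elsewhere. Genes of a library share that library and its depth and are not independent. The 38 members shorter than the median had a median log2 difference of 0.54 and the 39 others 0.23.

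**Figure D4:**
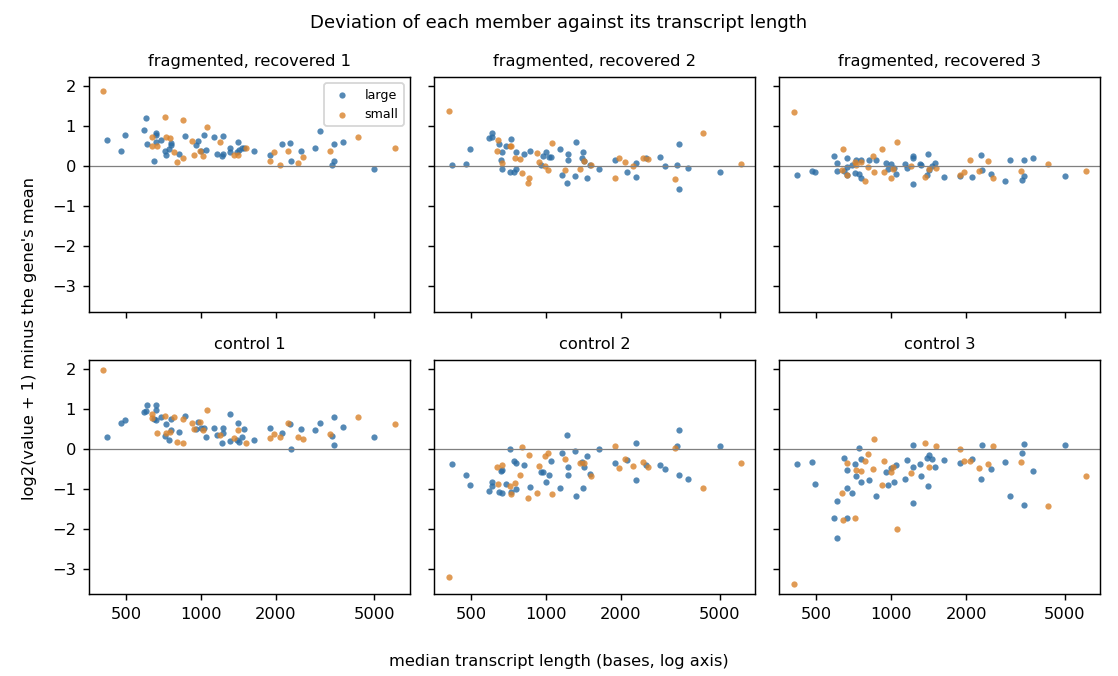
Each panel is 1 library and each point 1 gene, with median transcript length in bases (log axis) against log2(value + 1) minus the gene's mean over the 6 libraries. In controls 2 and 3 shorter genes tend to lie lower (Spearman 0.42 and 0.35), while in control 1 and fragmented, recovered 1 they tend to lie higher (-0.43 and -0.40).

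When smooth trends on GC content and length over all genes were taken out of each library, the member medians were 0.39, -0.07 and -0.03 in fragmented, recovered 1 to 3, 0.46 in control 1, -0.54 in control 2 and -0.18 in control 3. Control 1 and fragmented, recovered 1 thus stayed high and control 2 stayed low, and control 3 moved toward the middle. The median log2 difference between groups was 0.19 on that scale. The share of 50-base stretches that a member has in common with other genes had correlations between -0.11 and 0.16 with the deviations. The 24 members that share no such stretch and no exon with another gene had a median log2 difference of 0.32 and the other 53 had 0.28.

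A further 5 proteins of the mitochondrial ribosome have genes with other symbols and were described beside the members. Gadd45gip1, a large subunit protein at the exit tunnel, had 241, 306 and 181 in fragmented, recovered mice and 284, 52.0 and 15.6 in controls, a log2 difference of 1.92 (SE 0.85). Chchd1 and Aurkaip1, small subunit proteins, had 0.72 (SE 0.51) and 0.36 (SE 0.32), the latter turning to -0.13 once those trends were taken out. Dap3, a GTP-binding protein of the small subunit, had 0.09 (SE 0.24), turning to -0.18 on the same scale. Ptcd3, a pentatricopeptide repeat protein of the small subunit, had 740, 757 and 737 against 870, 1220 and 1273, a difference of -0.57 (SE 0.24). For Ptcd3 all fragmented, recovered mice lay below all controls, as for 3.58% of genes tested. None passed (limma adjusted p at least 0.697). At an unadjusted limma p under 0.05, Gadd45gip1 was higher and Ptcd3 lower, against 3.24% and 2.14% of genes tested.

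The rest of the mitochondrial translation pathway was less uniform. Of 28 measured genes for ribosome assembly and ribosomal RNA modification, 20 had a higher and 8 a lower mean, with a median log2 difference of 0.14 and 0 at an unadjusted p under 0.05. Rpusd3 and Gtpbp6 had 1.37 (SE 0.65) and 1.05 (SE 0.50), and the abundant Ndufab1 and Dhx30 had 0.23 and -0.13. Of 15 translation factors and related genes, 11 had a higher and 4 a lower mean, with a median of 0.25. Only Lrpprc, which was lower, had an unadjusted p under 0.05 (against 2.14% of genes tested in that direction). Tufm, the elongation factor that delivers transfer RNAs, had 1393, 1258 and 1136 in fragmented, recovered mice and 1386, 517 and 597 in controls, a difference of 0.74 (SE 0.36), so that control 1 again stood with the fragmented, recovered mice. Lrpprc, which stabilises mitochondrial messenger RNAs, had -0.60 (SE 0.26), and Oxa1l, which inserts new proteins into the inner membrane, had 0.26 (SE 0.24). The 20 transfer RNA synthetase and amidotransferase genes had a median of 0.02, with 11 higher and 9 lower. Among them Mars2 had -0.71 (SE 0.34), Gatb 0.45, Lars2 -0.34 and Iars2 0.02.

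The 11 genes for mitochondrial DNA maintenance and transcription had a median of -0.10, with Tfam, the packaging and transcription factor, at -0.37 (SE 0.25), Mterf2 at -0.57 (SE 0.57) and Polg at -0.04 (SE 0.25). The ribosomal RNAs of the mitochondrial ribosome itself differed in profile. mt-Rnr2, of the large subunit, had 43294, 23252 and 25667 in fragmented, recovered mice and 46243, 49398 and 47076 in controls, a difference of -0.69 (SE 0.36). For mt-Rnr2 all fragmented, recovered mice lay below all controls, as for 3.58% of genes tested. mt-Rnr1, of the small subunit, had 45603, 21267 and 23283 against 45631, 20449 and 12531, a difference of 0.32 (SE 0.50), and like the members it was high in fragmented, recovered 1 and control 1. The 13 mitochondrial messenger RNAs had a median of -0.0028 with 6 higher and 7 lower, and mt-Nd6, read from the other strand, had -1.31 (SE 0.48, limma adjusted p = 0.697). The abundant mt-Co1 and mt-Cytb had 0.18 and 0.39, and mt-Co2 had 0.73.

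The regulators known for driving such genes showed no common direction. Nrf1, Gabpa and Yy1, whose site letters were searched above, had differences of -0.30 (SE 0.28), -0.34 (SE 0.24) and -0.47 (SE 0.25). Esrra had 0.43 (SE 0.34) and Myc 0.52 (SE 0.38), and the coactivators Ppargc1a, Ppargc1b and Pprc1 had -0.03, 0.03 and 0.10. Ppargc1a stood at 579 in fragmented, recovered 3 and between 124 and 280 in the other libraries. None passed (limma adjusted p from 0.697 to 0.988). Gabpa, Esrra and all 3 coactivators changed sign on that scale, to 0.028, -0.24, 0.042, -0.26 and -0.34.

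Marker levels differed between these libraries too, and are given as list medians of the same deviations in log2. Adipocyte markers, 8 of 8 measured, summed to 388632 to 702669 in fragmented, recovered mice and 368171 to 573664 in controls. Their medians were 0.76, -0.12 and -0.03 in fragmented, recovered 1 to 3 and 0.35, -0.55 and -0.34 in controls 1 to 3. By these medians the highest and lowest pairs of libraries were those of the members. By sum the lowest were control 2 (368171) and fragmented, recovered 2 (388632). Control 3 (438382) was then close to fragmented, recovered 3 (438832). Between groups, 6 of these markers had a higher and 2 a lower mean. B and plasma cell markers, 12 of 12 measured, summed to 1849 to 36136 and 2142 to 90389, with medians high in fragmented, recovered 2, control 2 and control 3 (3.29, 4.46 and 2.89) and low in the others (-2.94, -3.53 and -3.65). Among these, Cr2 and Pax5 were at 0 in fragmented, recovered 1, Blk and Fcer2a in fragmented, recovered 3, and Pax5 and Fcer2a in control 1. Mammary epithelium markers, 10 of 11 measured, summed to 26842 to 33549 and 7572 to 34938. Their medians were 0.40, 0.39 and 0.92 in fragmented, recovered 1 to 3 and 0.89, -1.22 and -1.32 in controls 1 to 3. Like the members they were lowest in controls 2 and 3. Their highest median was in fragmented, recovered 3, where the member median was -0.05. Wap was at 0 in every library but fragmented, recovered 1, Csn2 also in fragmented, recovered 3 and control 3, and Lalba in control 3. Brown and beige adipocyte markers, 6 of 6 measured, had medians of -0.50, 1.10 and 0.91 in fragmented, recovered 1 to 3 and 1.28, -0.88 and -0.93 in controls 1 to 3. They were thus low in fragmented, recovered 1, where the members were high. Skeletal muscle markers, 11 of 11 measured, summed to 84117 in fragmented, recovered 1, where their median was 5.65, and to at most 10361 in the other libraries. Without fragmented, recovered 1 the member median was 0.17. T and NK cell markers, 10 of 10 measured, had medians of -1.50, 2.27 and -1.60 in fragmented, recovered mice and -1.01, 1.77 and 0.43 in controls. Lymph node stroma markers, 6 of 6 measured, had -0.31, 1.58 and -1.76 against -0.91, 2.00 and 0.23. Both the T and NK cell list and this list had their highest medians in the libraries with high B and plasma cell markers. Control 3 was the lowest of these (0.43 and 0.23). Of the stroma markers, Ccl19 was at 0 in every library but fragmented, recovered 2. Ccl21a was at 0 in fragmented, recovered 3 and controls 1 and 3, and Glycam1 in fragmented, recovered 1 and 3 and control 1. Cell cycle markers, 10 of 10 measured, had -1.85, 0.54 and -1.18 against -0.54, 1.98 and 0.98. Macrophage markers, 6 of 6 measured, had 0.34, 0.0071 and -0.69 against -0.28, 0.41 and 0.27. Endothelium markers, 5 of 5 measured, had 0.12, -0.071 and 0.21 against -0.072, -0.084 and 0.019. With the B and plasma cell score as a covariate the member median was 0.18. The part of the other tissues, and of the length and GC trends, in the member values was not tested beyond these measurements.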

How the data were processed

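RNA of inguinal fat from 3 fragmented, recovered and 3 control mice was sequenced. CASAVA, HISAT2 2.0.5, featureCounts 1.5.0-p3 and genome build mm8 are named in the submitters' processing notes. The deposited table holds a signal per Ensembl gene and library that the authors made. Divided by its smallest value above 0, each column gave whole reads for 100% of values (within 0.02), between 15610201 and 19703569 reads per library. Symbols came from a table of identifiers, which left 33 unmatched. The test was limma 3.58.1 (R 4.3.3) with an intensity trend, on log2(value + 1), over the 22290 genes whose mean was at least 1, with Benjamini-Hochberg adjustment over all of them (FDR 0.05). This scale understates differences of low genes. Alternatives were edgeR 4.0.16 and DESeq2 1.42.0 on recovered reads (0 genes called by each), other scaling, filters and pseudocount, each mouse left out, a replicate block, a B and plasma cell marker score as covariate, and removal of trends on length and GC content. The limma step was tested on simulated counts. These had no library-wide length, GC or tissue shifts, so that test does not cover data with such shifts. Length and GC content are medians over GENCODE M21 transcripts, used for all 77 members.

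Named members followed a rule: the 10 smallest p-values, the 5 highest and 5 lowest differences, the 3 most abundant of each subunit, the lowest mean, and genes with known roles. Mrpl46, Mrpl3, Mrps25, the genes passing without control 1 and the promoters printed were chosen after their values were seen. The members and lists were chosen with earlier results of these data known. The numbered labels were read as separate mice. The levels of 1 marker gene are not reported here.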

Additional observations from a re-analysis of the deposited data

How the results depend on the processing

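The replicate numbers were not treated as pairing the mice in the main test. Same-numbered mice had correlations of deviations of 0.18, 0.39 and 0.042, and differently numbered mice had values from -0.36 to 0.21. These values cannot settle whether the mice were paired. With the replicate block the median over members stayed at 0.30 and 0 members and 0 genes passed. Leaving out each mouse in turn, the count of all genes past the threshold ran from 0 to 844 and of members from 0 to 12, both highest without control 1. With trends also removed, an alternative chosen after seeing the data, these counts were 93 and 2. The large minus small subunit difference, 0.15 with all mice, ran from 0.11 to 0.27 with each mouse left out and was 0.019 with GC content and length trends removed. Its cause was not tested. The median over members was positive in every alternative run, from 0.17 to 0.61. All 77 members passed a mean of 10, and the other pseudocount and filters left the median at 0.30. Without Mrps21 it was also 0.30.

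Single genes changed sign, and not only those near 0. Among them were Aurkaip1 and Mrpl52, with differences of 0.36 and 0.31 in the main test. With each mouse left out, the ranges were -0.15 to 0.17 for Mrpl17, -0.028 to 0.64 for Mrpl30, -0.12 to 0.030 for Mrps18b, -0.24 to 0.13 for Mrps30, -0.0041 to 0.18 for Dap3, -0.11 to 0.10 for Iars2, -0.054 to 0.59 for Ndufab1, -0.20 to 0.083 for Polg, -0.68 to 0.43 for Ppargc1a, -0.15 to 0.39 for Ppargc1b, -0.090 to 0.33 for Pprc1, -0.18 to 0.52 for mt-Co1 and -0.11 to 0.82 for mt-Rnr1. With library-size scaling, which moved the median of all genes from 0.02 to 0.14, Mrps18b, Mrps30, Polg and Ppargc1a had 0.078, 0.082, 0.077 and 0.086. With trends removed, Mrpl17, Mrpl47, Mrpl52, Mrps30, Aurkaip1, Dap3, Esrra, Gabpa, Ppargc1a, Ppargc1b and Pprc1 had -0.27, 0.063, -0.16, 0.24, -0.13, -0.18, -0.24, 0.028, 0.042, -0.26 and -0.34. With the B and plasma cell score as a covariate, Mrpl17, Mrpl30, Iars2, Ndufab1, Polg, mt-Co1 and mt-Rnr1 had -0.059, -0.025, -0.057, -0.051, 0.085, -0.10 and -0.010. Ppargc1a had 0.29 with edgeR and 0.28 with DESeq2. The reason for these changes of sign was not tested. Depth limits low values such as those of Mrps21 in controls 2 and 3, at 19 and 17 reads, and of Gadd45gip1 in control 3, at 14 reads.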
